A study of Homo sapiens with 15 samples.

Results

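The genes described here make prostaglandins or sense them, and they were followed through fibroblasts and small cell lung cancer (SCLC) cells grown alone or together. They form a list of gene names: PTGS1, PTGS2, PTGES, PTGES2, PTGES3, PTGIS, HPGD, PTGER2, PTGER4 and PTGFR. Of these 10 genes, 9 had a row in each of the gene tables, which together list 17138 genes. HPGD, whose product starts the breakdown of prostaglandins, had no row, which was taken as not detected, and it was not analysed here.

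The MRC5 line comes from human lung fibroblasts, H69 is a neuroendocrine (NE) SCLC line and H196 is a non-NE SCLC line. MRC5 cells were grown alone (MRC5_Mo), with H69 (MRC5_coH69) or with H196 (MRC5_coH196), and H196 cells were grown alone (H196_Mo) or with MRC5 (H196_Co), all for 7 days. The partner sat on a transwell insert, so the partners shared medium through a porous membrane without mixing, and each tumor type was represented by 1 line. MRC5 cells were kept in MEM and SCLC lines in RPMI, and the paper does not state which medium the co-cultures shared. If it differed from that of the cells grown alone, partner and medium cannot be told apart. Each of the 5 groups had 3 libraries of poly(A) mRNA. The labels do not tie these to separate cultures, so the p-values measure the spread between these libraries, which may be technical.

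Prostaglandin synthesis begins when arachidonate, released from membrane phospholipids, is turned into prostaglandin H by a cyclooxygenase. PTGS1 encodes COX-1, which many cells make steadily, and PTGS2 encodes COX-2, the form induced by cytokines and growth factors. Terminal synthases then make the final products, and these leave the cell and act on G protein-coupled receptors of the same cell or of its neighbours. Lung fibroblasts are a well known source of prostaglandin E, which restrains their own growth and collagen synthesis through receptors that raise cAMP.

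The start regions of 5 genes called below are shown first, since they carry the elements through which such genes are usually switched. RefSeq (GRCh38.p14) held windows for 9 of the 10 genes, all but PTGIS. The 250 bases upstream of the start are printed for the called genes whose RefSeq start is also the edge of the gene in the deposited tables (GRCh38.p13), which leaves out PTGER2. These lie at chr1:186680424-186680673 on the minus strand for PTGS2, chr9:129753043-129753292 on the minus strand for PTGES, chr1:78490724-78490973 on the plus strand for PTGFR, chr9:128128441-128128690 on the minus strand for PTGES2 and chr5:40679665-40679914 on the plus strand for PTGER4. Each reads 5′ to 3′ along the gene. Capitals mark, on either strand, the TATA box (TATAAA), the half-site of the cAMP response element (TGACG), the core of the hypoxia response element (ACGTG) and the GC box (GGGCGG).
PTGS2: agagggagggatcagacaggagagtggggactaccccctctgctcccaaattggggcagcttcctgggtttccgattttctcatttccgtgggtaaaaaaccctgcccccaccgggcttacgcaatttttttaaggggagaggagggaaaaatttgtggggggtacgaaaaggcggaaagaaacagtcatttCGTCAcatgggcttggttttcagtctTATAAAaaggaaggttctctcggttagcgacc
PTGES: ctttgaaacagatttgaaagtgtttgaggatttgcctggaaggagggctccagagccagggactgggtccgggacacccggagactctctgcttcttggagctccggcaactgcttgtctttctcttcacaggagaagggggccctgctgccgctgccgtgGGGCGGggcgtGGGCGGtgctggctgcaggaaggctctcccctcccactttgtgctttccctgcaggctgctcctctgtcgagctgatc
PTGFR: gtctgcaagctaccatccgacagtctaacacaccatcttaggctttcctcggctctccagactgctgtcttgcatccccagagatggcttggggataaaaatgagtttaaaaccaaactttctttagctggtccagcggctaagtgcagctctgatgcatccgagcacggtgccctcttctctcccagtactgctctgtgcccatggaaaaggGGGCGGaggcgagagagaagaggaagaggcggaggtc
PTGES2: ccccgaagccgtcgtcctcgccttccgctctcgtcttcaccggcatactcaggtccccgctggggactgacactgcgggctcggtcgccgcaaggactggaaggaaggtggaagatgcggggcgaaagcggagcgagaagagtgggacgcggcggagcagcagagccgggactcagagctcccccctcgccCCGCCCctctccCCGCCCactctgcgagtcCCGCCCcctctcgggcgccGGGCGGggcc
PTGER4: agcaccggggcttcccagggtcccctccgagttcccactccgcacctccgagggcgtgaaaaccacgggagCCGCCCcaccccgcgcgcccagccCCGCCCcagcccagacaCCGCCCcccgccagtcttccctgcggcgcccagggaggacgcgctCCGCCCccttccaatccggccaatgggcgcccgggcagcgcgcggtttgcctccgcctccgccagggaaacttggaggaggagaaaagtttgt

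PTGS2 was the only one of these 5 genes with a TATAAA match, whose first base lies 32 bases upstream of its start, and the only one with a TGACG match, on the other strand 58 bases upstream. Over all 34943 RefSeq windows of this length, 10.8% held TATAAA and 21.2% held TGACG. PTGS2 held no GC box, while PTGES2 and PTGER4 held 4 each, PTGES held 2 and PTGFR held 1, against 42.5% of all windows with at least 1. ACGTG, found in 18.5% of all windows, matched none of the 5. An NF-κB-like pattern, GGG and CC separated by any 5 bases, was found in 54.4% of all windows and was left unmarked. These matches describe letters and do not show that a factor binds.

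Library totals ran from 18476890 to 19170560 counts for MRC5 and from 16073597 to 17358349 for H196, in which 3 counts correspond to 0.156 to 0.187 CPM, that is counts scaled to library size. Levels are given as FPKM, which is scaled for gene length and library size. Fold changes come from edgeR's quasi-likelihood test on the deposited counts, and a gene was called when its Benjamini-Hochberg adjusted p was under 0.05 and its log2 fold change was beyond 0.58 in either direction. The labelled lines carried their markers: 8 fibroblast genes summed to 26873 to 29917 CPM in MRC5_Mo and to at most 3.09 CPM in any H196 library. The summed level of 7 NE genes stayed at or below 0.377 CPM in MRC5 and at or below 19.9 CPM in H196, and that of 5 leukocyte and endothelial genes at or below 0.832 CPM in every library.

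The question of the first comparison was how fibroblasts change beside a non-NE tumor line. In MRC5_coH196 compared with MRC5_Mo, the inducible cyclooxygenase PTGS2 rose most among the members with measurable counts in both groups, the terminal synthases PTGES and PTGIS and the receptor PTGFR rose too, and PTGES2, PTGER2 and PTGER4 fell. PTGIS passed the filter on low counts only through MRC5_coH196 and is set apart. Of the other 8 members tested, 3 were called higher and 3 lower, against 31.9% of all 12819 genes called, 17.2% higher and 14.7% lower. In bulk libraries a change in the number of cells and a change in RNA per cell cannot be told apart.

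**Figure D1:**
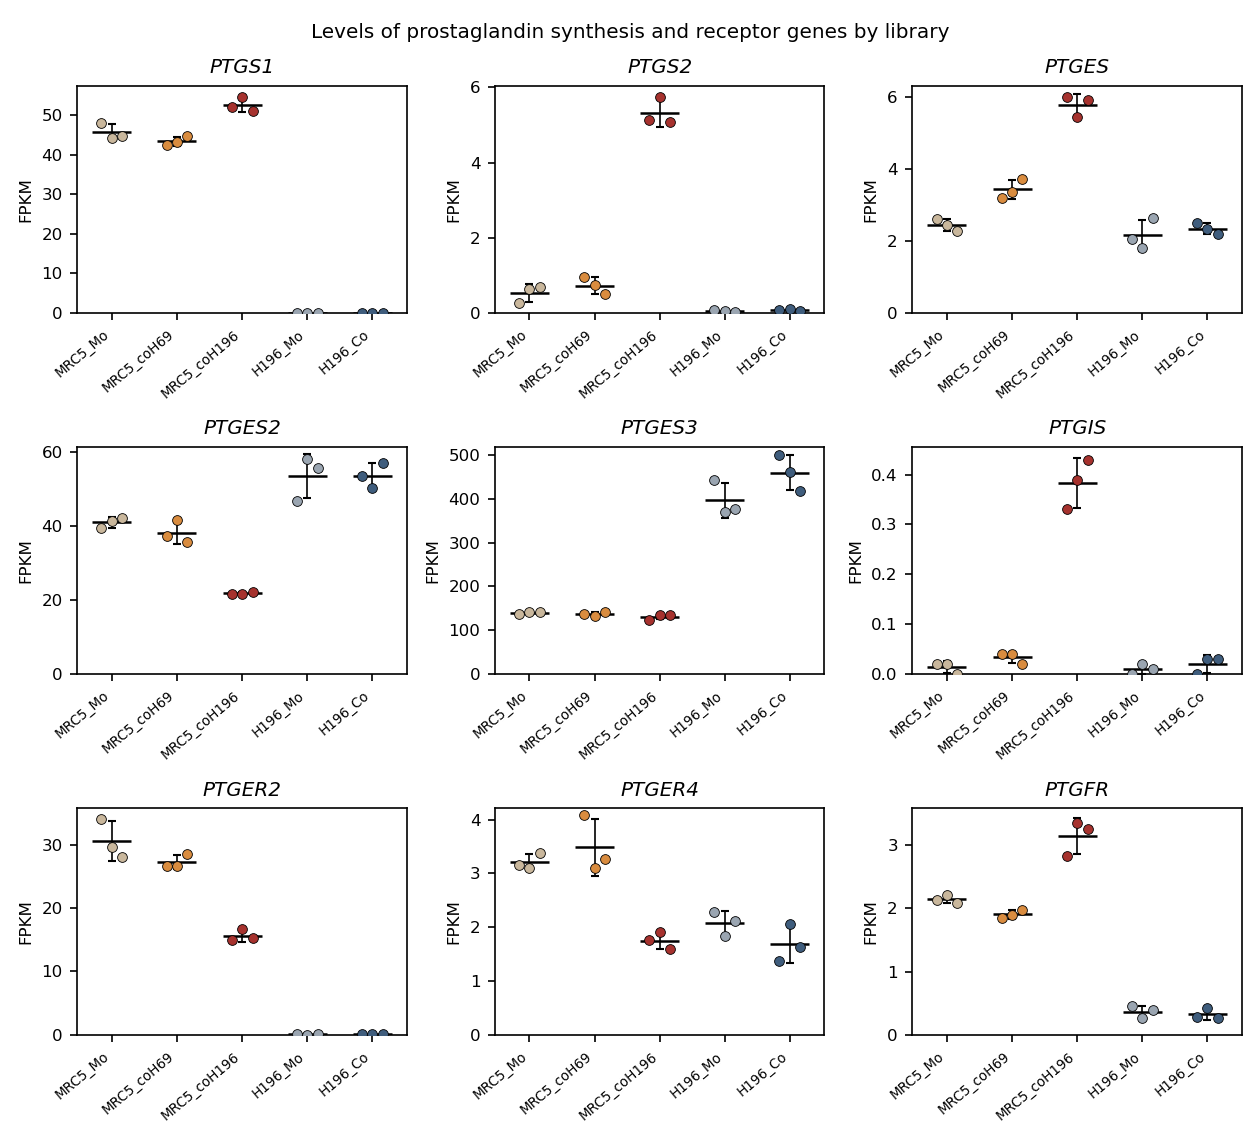
FPKM of the 9 members in each of the 15 libraries, by group, on linear axes that start at 0 and differ between panels. Points are libraries, horizontal lines are group means and bars are SD (n = 3). PTGS2 and PTGIS stood apart in MRC5_coH196, and PTGS1 and PTGER2 were at or near 0 in every H196 library.

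The cyclooxygenases started from very different levels. PTGS1 (gene ID 5742, chr9:122369906-122395703) was at 48.0, 44.3 and 44.8 FPKM in the 3 MRC5_Mo libraries and at 52.1, 54.7 and 51.0 FPKM in MRC5_coH196. The groups did not overlap, which was also true of 75.5% of all genes, but the rise was small, at 0.37 ± 0.043 on the log2 scale (SE, edgeR adjusted p = 2.16e-08), and below the fold limit. PTGS2 (gene ID 5743, chr1:186671791-186680423) was at 0.25, 0.63 and 0.68 FPKM in MRC5_Mo and at 5.13, 5.75 and 5.07 FPKM in MRC5_coH196. Every MRC5_coH196 library was thus well above every MRC5_Mo library, and the log2 fold change was 3.53 ± 0.17 (SE, edgeR adjusted p = 1.79e-15). The first MRC5_Mo library held 20 PTGS2 counts where the others held 50 and 53, and the log2 fold change ranged from 3.20 to 3.76 when single libraries were left out. COX-1 mRNA remained the more abundant of the pair in each MRC5 library.

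Expressed as a share within each library, a measure added after the data were seen, PTGS2 made up 1.14% ± 0.540 of the summed FPKM of PTGS1 and PTGS2 in MRC5_Mo, 1.65% ± 0.564 in MRC5_coH69 and 9.17% ± 0.299 in MRC5_coH196 (SD, n = 3). The exact permutation test of MRC5_coH196 against MRC5_Mo gave p = 0.1 (two-sided, n = 3 against 3), the smallest that 3 against 3 libraries can give, and 0.225 after adjustment over the 9 share comparisons. No share comparison could therefore pass 0.05.

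**Figure D2:**
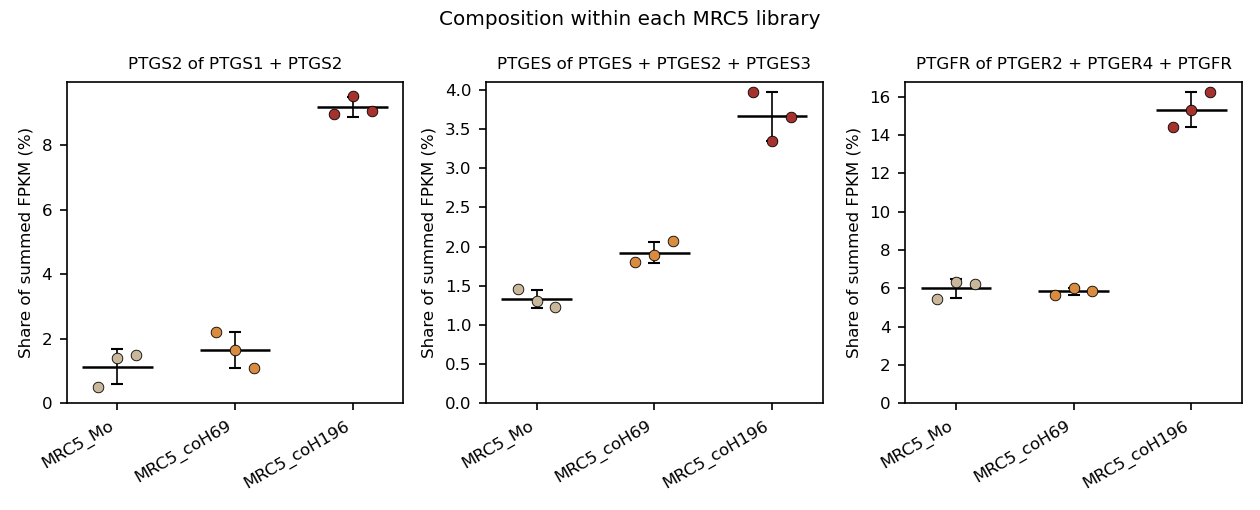
Share of PTGS2 among the cyclooxygenases, of PTGES among the prostaglandin E synthases and of PTGFR among the 3 receptors, in percent of their summed FPKM, for the MRC5 libraries. Points are libraries, horizontal lines are means and bars are SD (n = 3), and the MRC5_coH196 libraries lie above all others in each panel.

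The prostaglandin E synthases moved apart. PTGES (gene ID 9536, chr9:129738349-129753042), the microsomal synthase that usually works with COX-2, was at 2.61, 2.43 and 2.27 FPKM in MRC5_Mo and at 5.99, 5.43 and 5.92 FPKM in MRC5_coH196. It rose by 1.42 ± 0.12 on the log2 scale (SE, edgeR adjusted p = 1.11e-10), with groups well apart. PTGES2 (gene ID 80142, chr9:128108172-128128440), a second membrane-associated synthase, was at 39.4, 41.2 and 42.1 FPKM in MRC5_Mo and at 21.6, 21.5 and 22.1 FPKM in MRC5_coH196. All MRC5_coH196 libraries lay below all MRC5_Mo libraries, and PTGES2 fell by 0.74 on the log2 scale (SE 0.061, edgeR adjusted p = 7.15e-11). An antisense gene, PTGES2-AS1, is annotated there, and since use of strand in the counting is not given in the sources used here, its reads cannot be told from those of PTGES2.

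PTGES3 (gene ID 10728, chr12:56663349-56689575), the cytosolic synthase also known as the HSP90 co-chaperone p23, was the most abundant member at 137 to 142 FPKM in MRC5_Mo and 123 to 135 FPKM in MRC5_coH196. It did not pass the test, with a log2 difference of 0.07 ± 0.042 (SE, edgeR adjusted p = 0.151) that turned to -0.0965 on the log2(FPKM + 1) scale. PTGES3 has pseudogene copies (PTGES3P1 and others), so its counts are uncertain to the extent that reads were split between them. As a share of the summed FPKM of the 3 synthases, PTGES took 1.33% ± 0.115 in MRC5_Mo, 1.92% ± 0.135 in MRC5_coH69 and 3.66% ± 0.308 in MRC5_coH196 (SD, n = 3). The exact permutation p was 0.1 for either co-culture against MRC5_Mo (two-sided, n = 3 against 3), and 0.225 after adjustment.

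PTGIS (gene ID 5740, chr20:49488886-49568137), prostacyclin synthase, was close to absent from fibroblasts grown alone. Its counts were 2, 2 and 0 in MRC5_Mo, 4, 4 and 2 in MRC5_coH69 and 33, 38 and 44 in MRC5_coH196. The MRC5_coH196 libraries stood clear of both other groups, although at 0.33 to 0.43 FPKM the gene was still the lowest of the members there. The summed counts, scaled for library size, were 32.1 times those of MRC5_Mo, with a 95% exact interval of 12.2 to 120 that covers counting error only. With no filter on low counts, the edgeR adjusted p of PTGIS was 4.73e-13.

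The receptors split by type. PTGER2 (gene ID 5732, chr14:52311985-52328598) and PTGER4 (gene ID 5734, chr5:40679915-40740936) encode the prostaglandin E receptors EP2 and EP4, which raise cAMP. PTGER2 was at 34.1, 29.6 and 28.0 FPKM in MRC5_Mo and at 15.0, 16.7 and 15.2 FPKM in MRC5_coH196. It fell by 0.80 on the log2 scale (SE 0.063, edgeR adjusted p = 2.97e-11), without overlap of the groups. PTGER4 was at 3.15, 3.10 and 3.38 FPKM in MRC5_Mo and at 1.76, 1.91 and 1.59 FPKM in MRC5_coH196. Its groups did not overlap either, and it fell by 0.68 on the log2 scale (SE 0.11, edgeR adjusted p = 9.36e-06).

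PTGFR (gene ID 5737, chr1:78490974-78540701), the prostaglandin F receptor FP, signals through calcium rather than cAMP. Its level was 2.14, 2.21 and 2.09 FPKM in MRC5_Mo and 2.82, 3.35 and 3.26 FPKM in MRC5_coH196. It rose by 0.72 ± 0.084 on the log2 scale (SE, edgeR adjusted p = 2.75e-08), against the direction of the EP receptors. On the log2(FPKM + 1) scale the difference was 0.39, below the fold limit, as pseudocounts shrink low genes and the median of all genes moved to -0.13. PTGFR took 6.0% ± 0.492 of the summed FPKM of the 3 receptors in MRC5_Mo, 5.84% ± 0.189 in MRC5_coH69 and 15.3% ± 0.921 in MRC5_coH196 (SD, n = 3). The exact permutation p of MRC5_coH196 against MRC5_Mo was 0.1 (two-sided, n = 3 against 3), and 0.225 after adjustment.

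RNA of the partner could be followed with 95 genes chosen for a level of 20 CPM or more throughout H196 and of less than 0.5 CPM throughout MRC5_Mo. Their summed level was 8.96 to 9.94 CPM in MRC5_Mo, 8.34 to 10.4 CPM in MRC5_coH69, 23.7 to 61.8 CPM in MRC5_coH196 and 7747 to 8033 CPM in H196_Mo, and 1 of the 95 was at 0 in all MRC5_coH196 libraries. Every member that rose in MRC5_coH196 had fewer counts in H196_Mo, whose libraries held 2 to 5 counts of PTGS2, 0 to 2 of PTGIS, 23 to 37 of PTGFR and 46 to 67 of PTGES. The summed level of the fibroblast genes was lower in MRC5_coH196, at 12804 to 13561 CPM, where COL1A1 and COL3A1 fell and PDGFRB rose while the other 5 markers were not called. The part of this lower level in the changes of the prostaglandin genes was not tested, nor was that of H196 RNA.

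The NE partner gave a different picture. In MRC5_coH69 compared with MRC5_Mo, edgeR called 0 of the 9 members, against 0.554% of all 12819 genes, and DESeq2 also called 0. At an unadjusted p under 0.05 edgeR listed 3, which were PTGES, PTGER2 and PTGFR. PTGES was at 3.20, 3.37 and 3.72 FPKM in MRC5_coH69, above every MRC5_Mo library and below every MRC5_coH196 library. Its log2 difference from MRC5_Mo was 0.50 ± 0.13 (SE, edgeR adjusted p = 0.0213), short of the fold limit.

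PTGS2 was at 0.96, 0.73 and 0.49 FPKM in MRC5_coH69, overlapping MRC5_Mo, with a log2 difference of 0.50 ± 0.24 (SE, edgeR adjusted p = 0.255). For PTGS1, at 42.5, 43.1 and 44.7 FPKM, it was -0.06 ± 0.043 (SE, edgeR adjusted p = 0.509). PTGFR stood at 1.84, 1.90 and 1.98 FPKM, below all MRC5_Mo libraries, with a log2 difference of -0.26 ± 0.092 (SE, edgeR adjusted p = 0.0918). Groups that do not overlap were found for 25.7% of all genes in this comparison. PTGER2, at 26.7, 26.6 and 28.5 FPKM, and PTGER4, at 4.08, 3.11 and 3.26 FPKM, overlapped MRC5_Mo (edgeR adjusted p = 0.122 and 0.993). PTGES2 and PTGES3 overlapped it too (edgeR adjusted p = 0.392 and 0.839). The ratio of PTGIS counts was 2.52 with a 95% exact interval of 0.725 to 10.99, so a change of this gene was not detectable at this depth.

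Set directly against each other, the fibroblasts with the different partners differed in 6 of the 8 members other than PTGIS, against 28.2% of all genes. PTGS2 was higher in MRC5_coH196 than in MRC5_coH69 by 3.03 ± 0.16 on the log2 scale (SE, edgeR adjusted p = 1.26e-14), PTGFR by 0.98 ± 0.086 (adjusted p = 2.37e-10) and PTGES by 0.92 ± 0.11 (adjusted p = 9.93e-08). For PTGIS the ratio of summed counts was 12.8 with a 95% exact interval of 6.69 to 27.3 (edgeR adjusted p = 1.83e-11 with no filter on low counts). On the log2(FPKM + 1) scale PTGFR (0.51) and PTGIS (0.42) fell below the fold limit. The log2 difference was -0.64 for both PTGES2 and PTGER2 (SE 0.062 and 0.064, edgeR adjusted p = 1.21e-09 and 2.44e-09) and -0.68 for PTGER4 (SE 0.11, adjusted p = 9.77e-06). The call of PTGER4 was lost without the first MRC5_coH69 library (-0.56) and that of PTGES2 without the second (-0.57). PTGS1, at 0.43 ± 0.043 (SE, edgeR adjusted p = 2.17e-09), and PTGES3, at 0.09 ± 0.042 (adjusted p = 0.0640), were not called. This comparison shares its MRC5_coH196 libraries with the comparison against MRC5_Mo, so the pair of results is not independent.

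**Figure D3:**
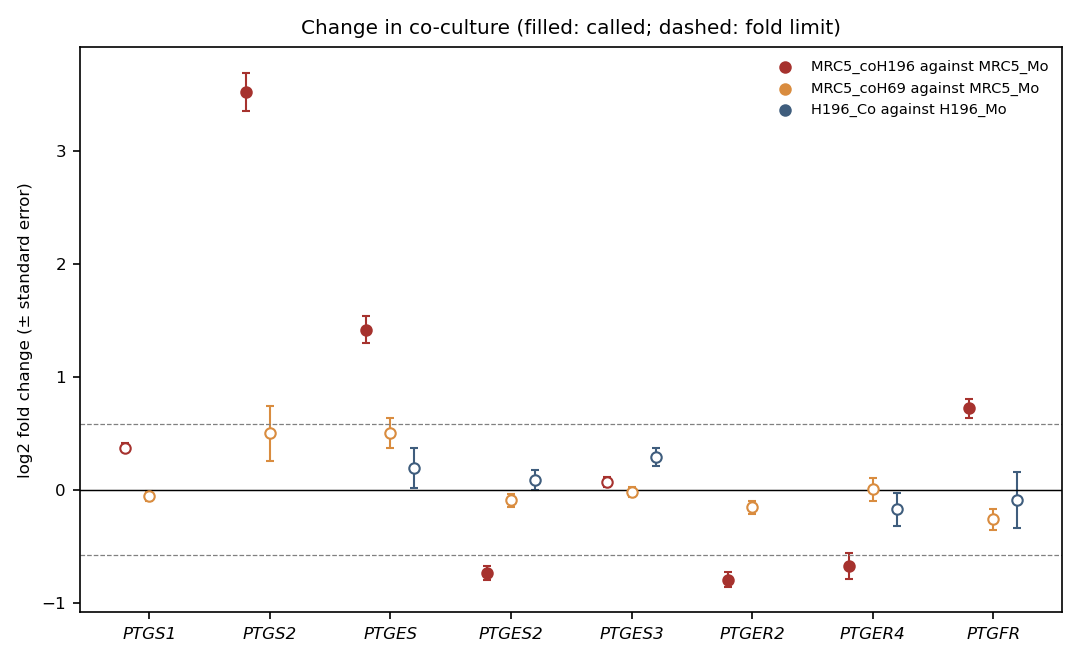
Log2 fold change with its standard error for 8 members in 3 comparisons. Filled points were called and open points were not, dashed lines mark the fold limit of 0.58, PTGIS is left out because a group near 0 gives no stable fold, and genes that failed the filter in H196 have no point. Filled points occur in MRC5_coH196 against MRC5_Mo, from PTGS2 at 3.53 down to PTGER2 at -0.80.

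H196 cells held another set of these genes. Of the 9 members, PTGS1 had 0, 0 and 1 counts in H196_Mo and 1 in each H196_Co library, PTGER2 had 2 to 6 counts per library, PTGIS 0 to 3 and PTGS2 2 to 8. Neither cyclooxygenase thus exceeded 0.11 FPKM in any H196 library. PTGES3 was the most abundant member, at 443, 369 and 376 FPKM in H196_Mo, followed by PTGES2 at 46.7, 57.96 and 55.7 FPKM. PTGES at 2.05, 1.79 and 2.63 FPKM and PTGER4 at 2.28, 1.84 and 2.12 FPKM overlapped each other, and PTGFR lay below them at 0.45, 0.26 and 0.39 FPKM.

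The lines grown alone were compared in a joint fit of the counts, in which 62.5% of all 13861 genes were called. PTGS1, PTGS2 and PTGER2 passed its filter on low counts only through MRC5, so their p-values are given from the fit with no such filter, and of the other 6 members 4 were called. The lines were kept in different media (MEM for MRC5, RPMI for H196), and line and medium cannot be told apart here. PTGFR was higher in MRC5_Mo than in H196_Mo by 2.98 ± 0.15 on the log2 scale (SE, edgeR adjusted p = 1.12e-15) and PTGER4 by 1.15 ± 0.12 (adjusted p = 2.76e-09). PTGS1 summed to 12151 counts in MRC5_Mo and to 1 count in H196_Mo, a ratio of 14755 after scaling with a 95% exact interval of 2648 to 582828 (edgeR adjusted p = 4.77e-49). For PTGER2 the ratio was 504 with an interval of 265 to 1104 (adjusted p = 5.22e-42), and for PTGS2 it was 13.6 with an interval of 7.33 to 27.9 (adjusted p = 6.38e-13). PTGES3 went the other way, with a log2 difference of -1.08 (SE 0.066, edgeR adjusted p = 4.30e-14). The log2 difference of PTGES was 0.60 ± 0.16 (SE, edgeR adjusted p = 0.00137) and fell below the fold limit without the first MRC5_Mo library (0.54) or without the first (0.57) or second (0.50) H196_Mo library. PTGES2 did not pass the test (0.04 ± 0.076, adjusted p = 0.595), and PTGIS was near 0 in both lines.

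H196 cells showed little change of these genes beside fibroblasts. In H196_Co compared with H196_Mo, 5 members passed the filter on low counts and edgeR called 0 of them, against 3.86% of all 12806 genes, as did DESeq2. At an unadjusted p under 0.05 edgeR listed 1, PTGES3, at 499, 460 and 419 FPKM in H196_Co. Its log2 difference was 0.29 ± 0.079 (SE, edgeR adjusted p = 0.0139), short of the fold limit. In scaled counts its groups did not overlap, as for 37.2% of all genes, whereas in FPKM the first H196_Mo library lay within the range of H196_Co.

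PTGES2 was at 53.4, 50.2 and 57.1 FPKM in H196_Co, PTGES at 2.49, 2.34 and 2.19 FPKM, PTGER4 at 1.37, 2.06 and 1.63 FPKM and PTGFR at 0.29, 0.42 and 0.26 FPKM. All of them overlapped H196_Mo, with edgeR adjusted p = 0.529, 0.463, 0.434 and 0.824. The 4 genes below the filter were not called without it either (PTGS1, PTGS2, PTGIS and PTGER2, edgeR adjusted p = 0.578, 0.561, 0.588 and 0.698).

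The responses of the partners were then compared in 1 fit of 12 libraries, with an interaction term for the response of MRC5 to H196 less that of H196 to MRC5. PTGS1, PTGS2 and PTGER2 passed the filter on low counts in this fit only through MRC5, as PTGIS did. Their p-values are given from the fit with no such filter. Of the other members PTGES, PTGES2 and PTGFR were called and PTGES3 and PTGER4 were not, against 23.7% of all genes called. The difference was 1.25 ± 0.22 on the log2 scale for PTGES (SE, edgeR adjusted p = 3.23e-05), 0.84 ± 0.25 for PTGFR (adjusted p = 0.00692) and -0.79 ± 0.11 for PTGES2 (adjusted p = 1.95e-06). For PTGS2, with at most 8 counts per H196 library, it was 2.90 ± 0.72 with no filter on low counts (SE, edgeR adjusted p = 0.000874). For PTGIS, with at most 3 counts per H196 library, the edgeR adjusted p was 0.0346 with no filter on low counts. PTGER4 passed the p threshold but not the fold limit (-0.47 ± 0.18, edgeR adjusted p = 0.0363), and was called without the third H196_Mo (-0.60) or the first H196_Co library (-0.63). PTGES3 did not pass (edgeR adjusted p = 0.0895). With no filter on low counts, PTGER2 (edgeR adjusted p = 0.0906) and PTGS1 (adjusted p = 0.583) did not pass either. H196 libraries held at most 6 counts of PTGER2 and 1 of PTGS1, so the term cannot decide whether the responses of these genes were particular to fibroblasts.

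The neighbouring steps of the pathway were read from 8 further gene lists. Of their 46 genes tested in MRC5_coH196 against MRC5_Mo, 17 were called by edgeR and 16 by DESeq2. The edgeR count is 37.0%, against 31.9% of all genes, 17.2% called higher and 14.7% lower. In the step before the cyclooxygenases, the release of arachidonate, 8 genes were tested, of which 0 were called higher and 1 lower, with a median log2 fold change of 0.30 against -0.003 for all genes. At an unadjusted p under 0.05 edgeR listed 5 of these 8, and DESeq2 called 0. The gene called lower by edgeR was PLA2G4A, the cytosolic phospholipase A2, with 15, 18 and 14 counts in MRC5_Mo and 7 in each MRC5_coH196 library (-0.99 ± 0.34, edgeR adjusted p = 0.0106). PLA2G4A passed the filter on low counts only through MRC5_Mo and MRC5_coH69, where it was higher, so this call is uncertain. Of 4 genes that return arachidonate to phospholipids, LPCAT3 was called lower (-0.68 ± 0.074, edgeR adjusted p = 8.38e-09).

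**Figure D4:**
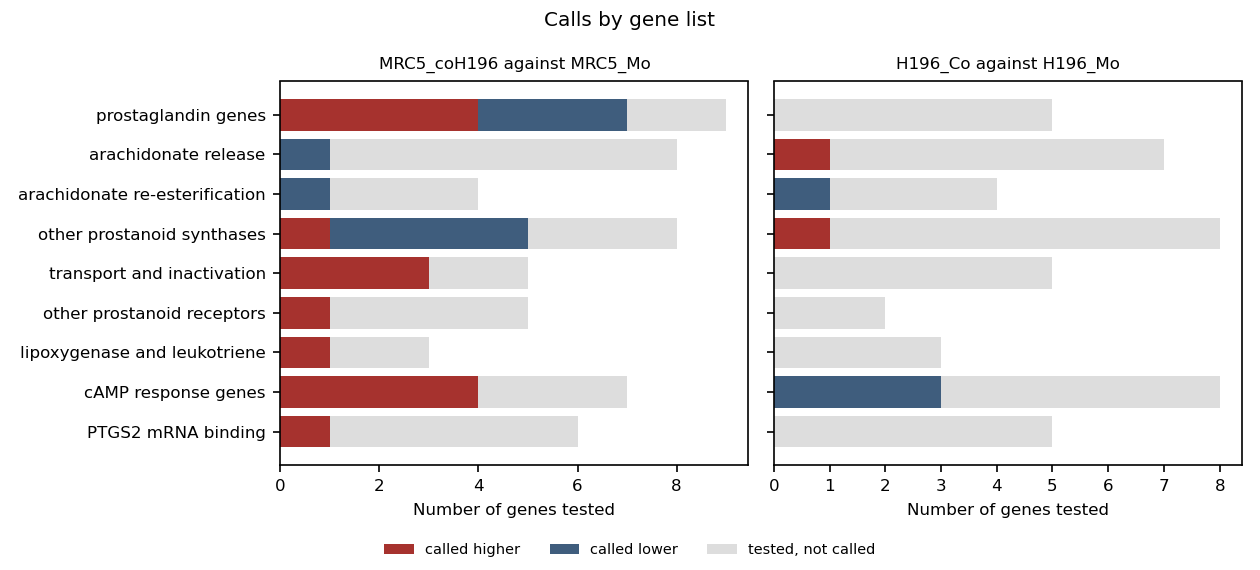
Number of genes tested in each list, split into those called higher, called lower and not called, for MRC5_coH196 against MRC5_Mo (left) and H196_Co against H196_Mo (right). In the cAMP response list 4 of 7 genes were called higher in MRC5_coH196 and 3 of 8 lower in H196_Co. The latter include PDE3A, whose call is uncertain because it passed the filter on low counts only through H196_Mo. Of all genes, 17.2% were called higher in MRC5_coH196 and 3.86% in either direction in H196_Co.

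In the list of synthases of other prostanoids, which also holds aldo-keto and carbonyl reductases, more genes were lower than higher. Of 8 tested, 1 was called higher and 4 lower, against 17.2% and 14.7% of all genes, with a median log2 fold change of -0.60. PTGDS, a prostaglandin D synthase, rose from 3.89, 4.43 and 4.96 FPKM to 8.4, 9.67 and 8.07 FPKM (1.14 ± 0.16, edgeR adjusted p = 6.62e-07). PRXL2B, a prostaglandin F synthase, fell (-0.685, edgeR adjusted p = 2.43e-08). AKR1C2 (-1.25, edgeR adjusted p = 6.47e-05) and AKR1C1 (-0.94, adjusted p = 2.38e-08), aldo-keto reductases, fell together with CBR3 (-0.78, adjusted p = 1.77e-07), a carbonyl reductase. The AKR1C genes are near-identical copies between which the counting could split reads, so the value of each is uncertain.

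Among genes of transport and inactivation 3 of 5 were called higher and 0 lower, with a median log2 fold change of 0.70. Of all genes, 17.2% were called higher and 14.7% lower. SLCO2A1 encodes the carrier that takes prostaglandins into cells for breakdown. It was at 0.37, 0.30 and 0.28 FPKM in MRC5_Mo and 1.08, 0.82 and 1.2 FPKM in MRC5_coH196 (1.80 ± 0.21, edgeR adjusted p = 2.98e-08), and its level in H196_Mo was 1.56 to 2.0 FPKM. PTGR1 (0.70, edgeR adjusted p = 1.40e-12) and PTGR2 (0.90, adjusted p = 2.10e-06), prostaglandin reductases, rose as well. ABCC4, which exports prostaglandins, was not called (-0.25 ± 0.049, edgeR adjusted p = 5.27e-05, short of the fold limit). Of 5 other genes of prostanoid receptors and their partners, 1 was called higher, PTGFRN (0.70, edgeR adjusted p = 0.00110), whose product binds the FP receptor. Of 3 lipoxygenase and leukotriene genes tested, 1 was called higher, LTA4H (0.64, adjusted p = 1.25e-10), which encodes leukotriene A hydrolase.

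Genes known to respond to cAMP, the messenger of EP2 and EP4, were read alongside. Of 7 tested, 4 were called higher and 0 lower, against 17.2% and 14.7% of all genes, with a median log2 fold change of 0.89. PDE4D, a phosphodiesterase that degrades cAMP, was at 0.37, 0.31 and 0.24 FPKM in MRC5_Mo and 1.17, 1.25 and 1.3 FPKM in MRC5_coH196 (2.17 ± 0.15, edgeR adjusted p = 1.24e-12). PER1, a clock gene, rose by 1.71 ± 0.078 (SE, edgeR adjusted p = 5.93e-16), and the nuclear receptors NR4A3 and NR4A1 by 0.90 ± 0.31 (adjusted p = 0.0104) and 0.89 ± 0.10 (adjusted p = 1.81e-08). The other 3 were not called and had log2 differences below 0. They were CREM (-0.51 ± 0.081, edgeR adjusted p = 3.92e-06, short of the fold limit), PDE4B (-0.29, adjusted p = 0.0533) and NR4A2 (-0.08, adjusted p = 0.748). H196_Mo held 4.77 to 5.07 FPKM of PDE4D, more than any MRC5 library. All of these genes also respond to signals other than cAMP.

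Of 6 genes whose proteins bind PTGS2 mRNA, 1 was called higher, or 16.7%, near the 17.2% of all genes. The called gene was ZFP36L1, a factor of mRNA decay. It was at 41.5, 40.8 and 42.9 FPKM in MRC5_Mo and at 86.2, 82.4 and 95.4 FPKM in MRC5_coH196 (1.25 ± 0.053, edgeR adjusted p = 1.53e-16). In MRC5_coH69, edgeR and DESeq2 called 0 of the 46 genes of the 8 lists, with 12 at an unadjusted p under 0.05 in edgeR. Of all genes, edgeR called 0.554% there.

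In H196_Co, 6 of the 42 genes tested in these lists were called by edgeR, or 14.3% against 3.86% of all genes, and 5 by DESeq2. PLA2G4B, another cytosolic phospholipase A2, was higher (0.65 ± 0.12, edgeR adjusted p = 0.000849), although it overlaps the JMJD7-PLA2G4B readthrough gene and its counts are uncertain to that extent. PTGDS was called higher by edgeR (0.77 ± 0.21, adjusted p = 0.0138) but not by DESeq2, and ACSL3, which activates long-chain fatty acids, was lower (-0.77 ± 0.071, adjusted p = 1.63e-07). Of 8 cAMP response genes, 0 were called higher and 3 lower: NR4A3 (-1.45 ± 0.25, edgeR adjusted p = 0.000504), PDE3A (-1.30 ± 0.28, adjusted p = 0.00259) and NR4A2 (-1.12 ± 0.13, adjusted p = 2.75e-06). PDE3A held 26 to 38 counts per H196_Mo library and 9 to 16 per H196_Co library. It passed the filter on low counts only through H196_Mo, where it was higher, so its call, included in these counts, is uncertain. For NR4A3 the interaction term was 2.38 ± 0.41 (SE, edgeR adjusted p = 2.99e-05), so its responses in the partners differed.

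The genes most like each cyclooxygenase over the 9 MRC5 libraries were taken by Pearson's r of log2 CPM among 12818 genes, as a description. For PTGS1 they were DGKE, TMEM158 and ADNP2, with r = 0.995 for each. For PTGS2 they were CREB3L2 (r = 0.994), PRR5L (r = 0.9925) and SLC4A5 (r = 0.992). The 9 libraries fall into 3 groups, so these values mostly repeat the difference between MRC5_coH196 and the rest.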

How the data were processed

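RNA-seq libraries of MRC5 and H196 cells, 3 per group in 5 groups, were analysed from the deposited gene tables. Per the methods, the authors cleaned reads with SOAPnuke and aligned them to GRCh38.p13 with HISAT, then to reference genes with Bowtie2, and the submitters' processing notes list HISAT2 2.1.0, Bowtie2 2.3.4.3 and RSEM 1.3.1. The deposited expected counts are the authors' estimated reads per gene, not normalized, of which 93.7% (MRC5) and 92.1% (H196) are whole numbers. The deposited FPKM values were made by the authors by gene length and mapped fragments, to 2 decimals. The tables also hold the authors' own fold changes, p-values and group averages, which were not used, nor were 30 columns of TPM and normalized counts. 

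Counts were rounded and fitted with edgeR 4.0.16 in R 4.3.3 after filterByExpr and TMM scaling (factors 0.916 to 1.05 within lines, 0.783 to 1.23 jointly), with the 9 MRC5 libraries, the 6 H196 libraries, or the 12 libraries of mono-cultures and MRC5 with H196 together, where a gene without a row in a table was set to 0. Tests were two-sided and adjusted over all genes tested, which were 12819, 12806 and 13861. SEs were derived from the log2 fold change and the F statistic. CPM used TMM-scaled totals, except for marker sums and the limit that 3 counts set. Scripts were tested on simulated data. Ratios of summed counts carry exact 95% intervals for counting error only.

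The members and lists were chosen with earlier results of these data known. Genes named are the 10 members, up to 4 called genes per list by size of change and the 3 most correlated with each cyclooxygenase. COL1A1, COL3A1, PDGFRB, ABCC4, CREM, PDE4B, PRXL2B, PTGES2-AS1, PTGES3P1 and JMJD7-PLA2G4B were named outside this rule, after values were seen. Alternatives were DESeq2 1.42.0 (size factors, Wald test), limma 3.58.1 on log2 FPKM with pseudocounts of 1 and 0.1, other count filters and fold limits, only the groups compared, only genes in both tables, a replicate block and each library left out.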

Additional observations from a re-analysis of the deposited data

Results flagged for a closer look

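The interaction term of the joint edgeR fit is given as the log2 response of MRC5 less that of H196. PTGS1, PTGS2 and PTGER2 passed the filter on low counts only through MRC5, as PTGIS did, and are set apart. Of the other members PTGES, PTGES2 and PTGFR were called and PTGES3 and PTGER4 were not, against 23.7% of all 13861 genes. For PTGS2 the difference was 2.97 (SE 0.79), where H196 held 2 to 8 counts per library. With no filter on low counts it was 2.90 (SE 0.72, edgeR adjusted p = 0.000874). For PTGES it was 1.25 (SE 0.22, adjusted p = 3.23e-05) and for PTGES2 -0.79 (SE 0.11, adjusted p = 1.95e-06), both well counted in either line. For PTGFR it was 0.84 (SE 0.25, adjusted p = 0.00692), and without the first H196_Mo library it was 0.64 with adjusted p = 0.0597. For PTGIS, which passed the filter on low counts only through MRC5_coH196, it was 3.94 (SE 1.5) on at most 3 counts per H196 library, so its size depends on how the fit treats counts near 0. With no filter on low counts the edgeR adjusted p of PTGIS was 0.0346. In the filtered fit its call was lost without the second (adjusted p = 0.305) or the third (0.0806) H196_Mo library, the first H196_Co library (0.0531) or the third MRC5_Mo library (0.0578).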

How the results depend on the processing

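Of the member values recomputed under the alternatives, 887 kept direction and side of the threshold, 28 lost a call, 7 gained one and 14 turned direction. Counts of members here include PTGIS, which passed the filter on low counts only through MRC5_coH196. Those of the interaction and of MRC5_Mo against H196_Mo can also include PTGS1, PTGS2 and PTGER2, which passed it only through MRC5. All these counts describe how calls depend on the setting. They are not set beside the share of all genes called under the same setting, so they say nothing particular to these members. With a log2 fold limit of 1 the members called were 3 in MRC5_coH196 against MRC5_Mo, 2 against MRC5_coH69 and 3 for the interaction. With no fold limit they were 1 in MRC5_coH69 against MRC5_Mo and 1 in H196_Co against H196_Mo. With at least 10 counts in every library only PTGES, PTGES2, PTGES3, PTGER4 and PTGFR were tested in the joint fit. The members called were then 3 for the interaction, without PTGS2 and PTGIS, and 3 for MRC5_Mo against H196_Mo, without PTGS1, PTGS2 and PTGER2 and with PTGES, still tested, just below the fold limit (0.58, edgeR adjusted p = 0.00147). With single libraries left out the counts were 7 to 7, 0 to 0, 6 to 7 (MRC5_coH196 against MRC5_coH69), 0 to 0, 4 to 5 (interaction) and 6 to 7 (MRC5_Mo against H196_Mo). 

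PTGIS (0.45) and PTGFR (0.39) lost their calls in MRC5_coH196 against MRC5_Mo on log2(FPKM + 1), as did PTGFR (0.53) on log2(FPKM + 0.1), and against MRC5_coH69 PTGFR (0.51) and PTGIS (0.42) lost theirs on log2(FPKM + 1). The values that turned direction were small and not called. PTGES3 was -0.0965 on log2(FPKM + 1) and -0.0971 on log2(FPKM + 0.1) in MRC5_coH196 against MRC5_Mo, and -0.0687 and -0.0692 against MRC5_coH69, scales on which the median of all genes was also below 0. PTGER4 in MRC5_coH69 against MRC5_Mo was -0.0034 with DESeq2 size factors, -0.0037 with the DESeq2 Wald test, -1e-04 with the replicate block and -0.1195 to 0.0689 with single libraries left out. With single libraries left out, PTGES2 ranged from -0.0171 to 0.1548 and PTGFR from -0.3012 to 0.057 in H196_Co against H196_Mo, and PTGES2 from -0.0401 to 0.1315 in MRC5_Mo against H196_Mo. The cause was not tested. 

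Replicate numbers did not pair the libraries: same-numbered libraries correlated at -0.151 to 0.081, and 3 of 24 correlated best with their own number. With the replicate block the members called were 7, 0, 7, 0, 5 and 7 in the 6 comparisons, as without it. Depth limits PTGS1, PTGS2, PTGIS and PTGER2 in H196 and PTGIS in MRC5_Mo, at a few counts per library.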
